A study of Mus musculus with 8 samples.

Results

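The miR-30 family was measured in the livers of diabetic db/db mice and of their db/+ controls. The members were the 7 mature miRNAs that the array names mmu-miR-30a, mmu-miR-30b, mmu-miR-30c, mmu-miR-30d, mmu-miR-30e, mmu-miR-30a* and mmu-miR-30e*, out of 567 mouse miRNAs on the array. They were taken by name and not by a cutoff on their values, though with earlier results of these data known. A star marks the second, usually less abundant arm of a hairpin. The db/db group held the livers of 4 mice, whose strain the labels give as C57BL/KsJ and which lack a working leptin receptor in every tissue and become obese and diabetic. The db/+ group held the livers of 4 mice with 1 such allele, the nondiabetic controls, so both groups carry the db allele. The labels name no treatment, the study took 4 animals per strain and has 4 arrays per strain, and neither pooling nor the age of these animals is given in the sources used here. The db/db arrays and db/+ arrays 3 and 4 carry their replicate number in their titles, and db/+ arrays 1 and 2 were numbered in the order of deposit. Liver RNA is a mixture of cell types, and fewer cells of a type cannot be told apart from less RNA per cell.

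A miRNA pairs with messenger RNAs mainly through its seed, bases 2 to 8 counted from its 5′ end, and lowers their translation or stability. Members of a family share a seed and so can share targets, while the rest of the sequence differs. The miR-30 family is found in most vertebrate tissues. In zebrafish miR-30a is needed for bile duct formation in the liver, and in mouse liver added miR-30c lowers lipoprotein production by repressing Mttp, the transfer protein that loads lipid onto lipoproteins.

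The family was shown in sequence because its members differ by few bases and an array has to tell them apart. Sequences were found for 5 of the 7 members in RefSeq (GRCm38.p6), with the star arms listed there as 3p, and are written 5′ to 3′ with the seed in capitals.
miR-30a: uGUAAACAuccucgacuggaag
miR-30c: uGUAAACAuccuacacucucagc
miR-30e: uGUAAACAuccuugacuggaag
miR-30a*: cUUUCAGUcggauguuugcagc
miR-30e*: cUUUCAGUcggauguuuacagc
The 5p arms miR-30a, miR-30c and miR-30e have the seed GUAAACA and are identical over their first 12 bases. The star arms have another seed, UUUCAGU, and share their first 17 bases. miR-30b and miR-30d were not in that table. Of 1679 mature mouse miRNA names in it, 4 (0.238%) have the seed GUAAACA, the other being miR-384-5p, which shares 8 bases with miR-30a from the 5′ end and was detected on 0 of the 8 arrays.

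Both arms of a hairpin come from 1 precursor, which is shown for Mir30a and Mir30e because their arms were both measured. The arms are in capitals. Mir30a lies on chromosome 1 from 23272269 to 23272339 on the plus strand, and Mir30e on chromosome 4 from 120772606 to 120772697 on the minus strand (GRCm38.p6).
Mir30a: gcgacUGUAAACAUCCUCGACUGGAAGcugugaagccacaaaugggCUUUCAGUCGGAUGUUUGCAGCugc
Mir30e: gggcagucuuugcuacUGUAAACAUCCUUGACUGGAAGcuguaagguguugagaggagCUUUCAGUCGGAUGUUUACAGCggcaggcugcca
The array files place the 3′ ends of the arms of Mir30a 41 bases apart and those of Mir30e 42 bases apart (mm9), the same spacing as in RefSeq, which ties each starred name to its 3p arm. Mir30e and Mir30c-1 lie within Nfyc, the gene of a subunit of the CCAAT-binding factor NF-Y, while Mir30a, Mir30c-2, Mir30b and Mir30d lie within no other gene of the RefSeq records. In the array's mm9 coordinates the probes for miR-30a and miR-30c lie 19.4 kb apart on chromosome 1, and those for miR-30b and miR-30d 3.79 kb apart on chromosome 15. miR-30c is encoded by both Mir30c-1 and Mir30c-2, so its signal sums over chromosomes 1 and 4.

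Each member had 20 spots per array, from 2 probes or, for miR-30a, 3, and each probe matched 13 to 18 bases from the 3′ end of the miRNA. Among the 5 members with a sequence here, the closest differ by 1 base within that stretch. miR-30b and miR-30d could not be compared. The differing base is written in capitals in the last 17 bases of each.
miR-30a: acauccuCgacuggaag
miR-30e: acauccuUgacuggaag
miR-30a*: agucggauguuuGcagc
miR-30e*: agucggauguuuAcagc
Counted from the 5′ end of the miRNA, the difference between miR-30a and miR-30e is C13U and that between miR-30a* and miR-30e* is G18A. How much signal these probes share was not tested.

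Levels are log2 of the scaled signal. The scaling factor of an array is its median signal among the 89 miRNAs that every array detected, relative to the geometric mean of the 8 medians. Values of different miRNAs come from different probes and were not ranked against each other. The scaling factors ran from 0.847 to 1.06 among the db/db arrays and from 0.21 to 5.63 among the db/+ arrays, where replicate 1 was the brightest and replicate 4 the dimmest. The strains shared 1 slide, with db/db in its row 1 and db/+ in its row 2, so row and strain cannot be told apart. The liver marker miR-122 was detected on all 8 arrays, at 15.48 ± 0.06 in db/db and 15.38 ± 0.70 in db/+ livers (SD, n = 4 each). All 8 hepatocyte miRNAs looked for were tested and 0 passed. Of 5 leukocyte miRNAs 2 were tested and both were lower in db/db livers. The log2 of the list's summed signal, in which bright miRNAs weigh most, ran from 7.65 to 8.16 in db/db livers. In db/+ livers it ran from 8.56 to 8.97. Of 5 bile duct miRNAs 2 were tested and 1 was higher. The log2 of that list's summed signal ran from 6.25 to 6.70 in db/db and from 5.97 to 6.10 in db/+ livers. The tested miRNAs of the other lists, 3 of stellate and smooth muscle cells, 2 endothelial and 1 erythroid, did not pass. Among all tested miRNAs 9.45% were higher and 5.51% lower. Of 4 skeletal muscle miRNAs 0 were detected on any array. The part of these cell types in the members' values was not tested.

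No member of the family passed the test in the diabetic livers. All 7 were tested, with log2 fold changes from -0.09 to 0.37, 4 of them positive and 3 negative, where 66.1% of all tested miRNAs were positive (limma adjusted p from 0.185 to 0.996 over the 127 miRNAs tested). Among all tested miRNAs, 19 of 127 (15%) passed an adjusted p of 0.05, 12 higher (9.45%) and 7 lower (5.51%). That split moved to 6 higher and 8 lower with 75th percentile scaling, 9 and 8 with quantile normalization, 10 and 11 with cyclic loess and 8 and 10 with scaling on the log2 mean of detected non-members. Without adjustment 0 members had a p under 0.05, against 26% of the miRNAs tested, and SAM, the method the series names, called 0 members and 18.1% of the tested miRNAs. The strains overlapped for every member, whereas 22.8% of the tested miRNAs had no overlap. The median log2 fold change was 0.18 over the members and 0.15 over all miRNAs tested, whose values ran from -1.77 to 2.54.

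**Figure D1:**
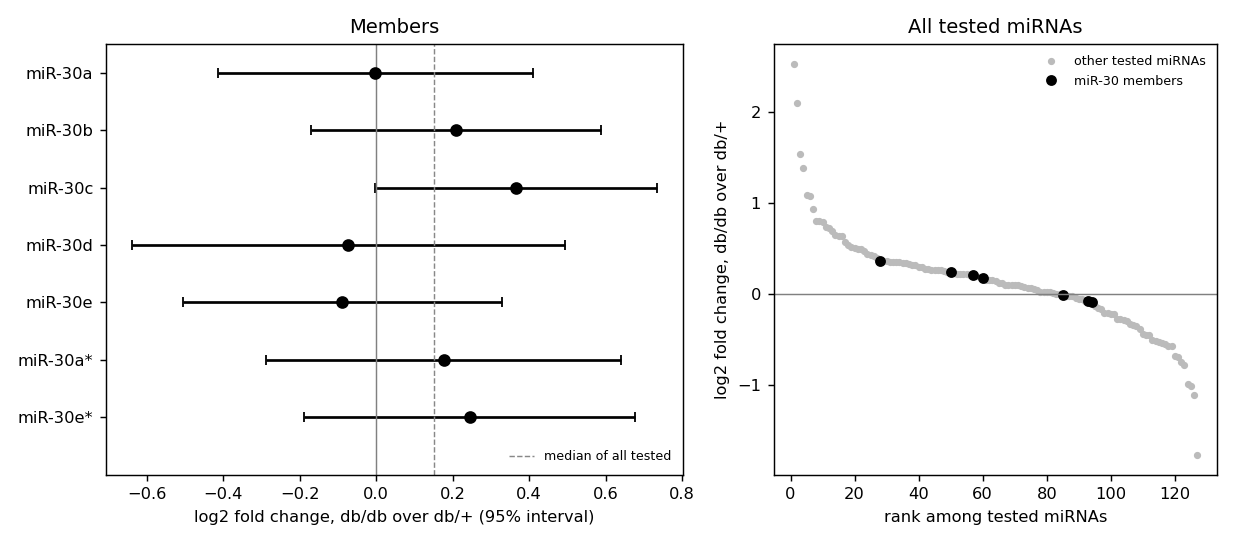
Left, log2 fold change of each member, db/db over db/+, with its 95% interval from limma (n = 4 arrays per strain); the dashed line is the median of all 127 tested miRNAs, 0.15. Right, all 127 by rank, with the members in black: their values lie between -0.09 and 0.37, between the extremes of -1.77 and 2.54.

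Among the 5p arms, miR-30c had the largest difference. In mouse liver this is the member tied to lipoprotein assembly. Its log2 signal was 10.45, 10.94, 10.69 and 10.90 in db/db livers 1 to 4, against 10.23, 10.28, 10.38 and 10.63 in db/+ livers 1 to 4. All db/db livers but liver 1 lay above every db/+ liver, and db/db liver 1 lay within the db/+ range. The log2 fold change was 0.37 ± 0.16 (SE, n = 4 per strain), a 1.29-fold difference with a 95% interval of 0.999- to 1.66-fold (limma adjusted p = 0.185). All 4 db/db livers lay above the db/+ mean of 10.38. Both of its probes gave like differences, 0.33 and 0.38. Weighting the arrays by their scatter gave db/db replicates 1 to 4 weights of 0.878, 2.86, 1.42 and 2.05. For db/+ replicates 1 to 4 the weights were 1.54, 0.349, 1.21 and 0.21. The largest weight went to db/db replicate 2, which had the highest miR-30c value. This weighting brought miR-30c past the threshold at 0.51 (limma adjusted p = 0.0227). With it 42 of the 127 tested miRNAs passed, against 19 in the main processing. The adjusted p of miR-30c ranged from 0.0879 to 0.993 under the other 26 alternatives that gave one.

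miR-30a, known for repressing the autophagy gene Beclin 1 in human cells, averaged 10.74 ± 0.13 in db/db and 10.75 ± 0.33 in db/+ livers (SD, n = 4 each). It stood at 10.68, 10.77, 10.91 and 10.60 in db/db livers, against 10.51, 11.07, 10.41 and 10.99 in db/+ livers. The db/db values lay inside the db/+ range, which was wider. The log2 fold change was -0.0028 ± 0.18 (SE, n = 4 per strain; limma adjusted p = 0.996), with a 95% interval from 0.75-fold to 1.33-fold. Its 3 probes taken singly gave differences of 0.01 to 0.02, on the other side of 0.

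miR-30e, which lies with Mir30c-1 in Nfyc and in mouse bone and fat precursors represses the Wnt co-receptor Lrp6, was at 8.40, 8.12, 8.43 and 7.84 in db/db livers, against 8.40, 8.32, 8.48 and 7.94 in db/+ livers. The groups overlapped over nearly their whole ranges. Its log2 fold change was -0.09 ± 0.19 (limma adjusted p = 0.796, SE, n = 4 per strain). The scaled values of miR-30a and miR-30e, 1 base apart, had a Pearson r of -0.221 over the 8 arrays. Those of miR-30a* and miR-30e*, also 1 base apart, had a Pearson r of 0.794, which includes db/+ replicate 4, where miR-30e* was not detected. Both are descriptions over arrays of both strains.

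The neighbours miR-30b and miR-30d, transcribed from a pair of hairpins on chromosome 15 and in human melanoma known to act together on GALNT7, both had tight db/db values and spread db/+ values. miR-30b was at 8.56, 8.74, 8.68 and 8.75 in db/db livers, against 8.73, 8.32, 8.71 and 8.13 in db/+ livers. In db/+ livers 2 and 4, the dim arrays, miR-30b was low, and the log2 fold change was 0.21 ± 0.17 (limma adjusted p = 0.411, SE, n = 4 per strain). Without db/+ replicate 4 it was 0.09. miR-30d, which in mouse beta cell lines is raised by glucose, was at 7.68, 7.57, 7.71 and 7.68 in db/db livers, against 7.04, 8.10, 7.50 and 8.28 in db/+ livers. Here the dim arrays were the high ones, and all 4 db/db livers lay between the bright and the dim db/+ arrays. The log2 fold change of miR-30d was -0.07 ± 0.25 (SE, n = 4 per strain; limma adjusted p = 0.877). Its SD was 0.06 in db/db and 0.57 in db/+ livers, 8.98 times as large in db/+, the widest gap of the 7 members.

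**Figure D2:**
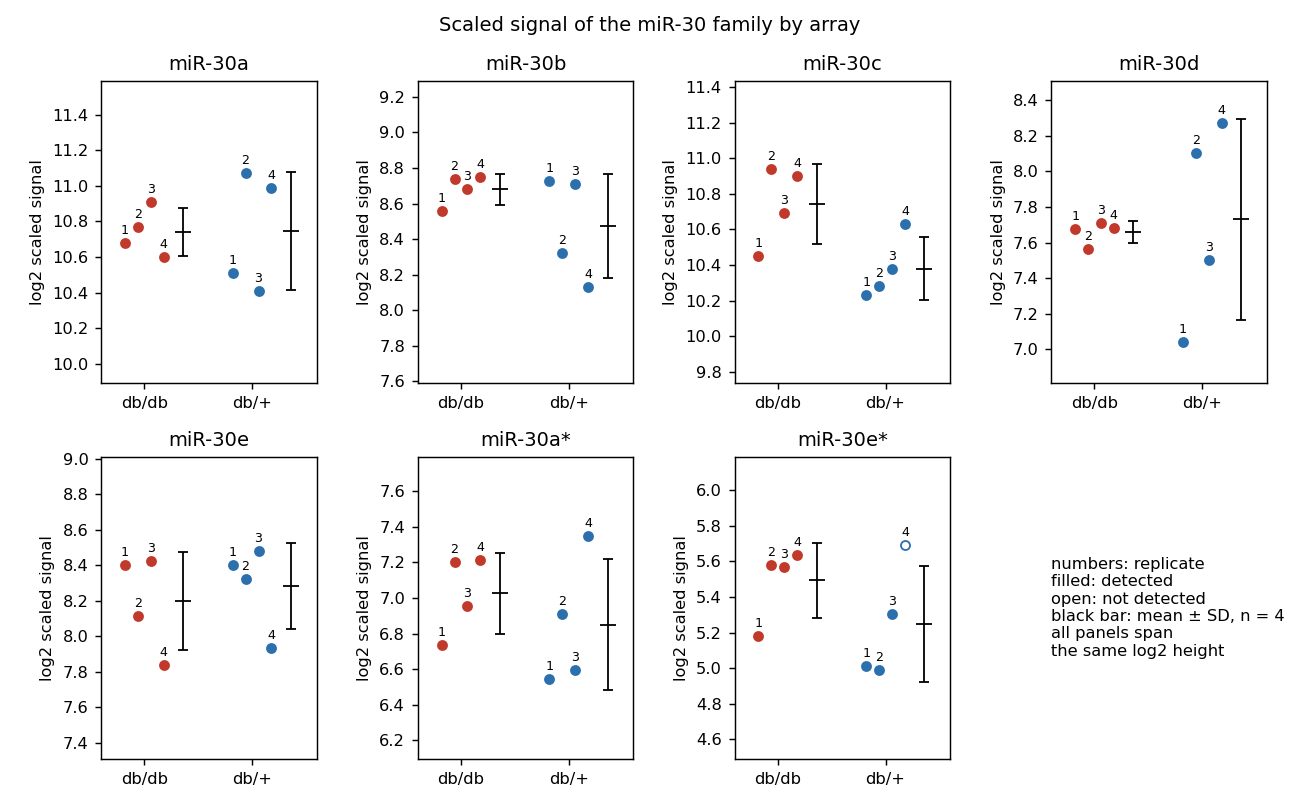
Log2 scaled signal of each member on every array, db/db (red) left of db/+ (blue), with the replicate number above each point, an open point where the miRNA was not detected, and the mean ± SD (n = 4) as a black bar. The strains overlap in all 7 panels, and miR-30d spans 7.57 to 7.71 in db/db against 7.04 to 8.28 in db/+.

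The SD was larger in db/+ than in db/db livers for 5 of the 7 members and for 106 of the 127 tested miRNAs. For 3 members the db/+ values followed the brightness of the arrays, in directions that differed between them. From the brightest to the dimmest db/+ array, with scaling factors of 5.63, 1.58, 0.564 and 0.21, miR-30d was at 7.04, 7.50, 8.10 and 8.28, higher on each dimmer array. miR-30a* followed the same order, at 6.54, 6.60, 6.91 and 7.35. miR-30b went the other way, at 8.73, 8.71, 8.32 and 8.13. On the dimmest array 13 of 20 usable spots of miR-30b and 11 of 19 of miR-30a* were well above background. Of the 89 miRNAs detected on all 8 arrays, 10 were higher and 4 lower on each dimmer db/+ array, so other miRNAs showed such orders too. Over all 8 arrays the scaled values of miR-30b and miR-30d ran against each other (Pearson r = -0.842, a description). The part of array brightness in the differences between the strains was not tested.

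**Figure D3:**
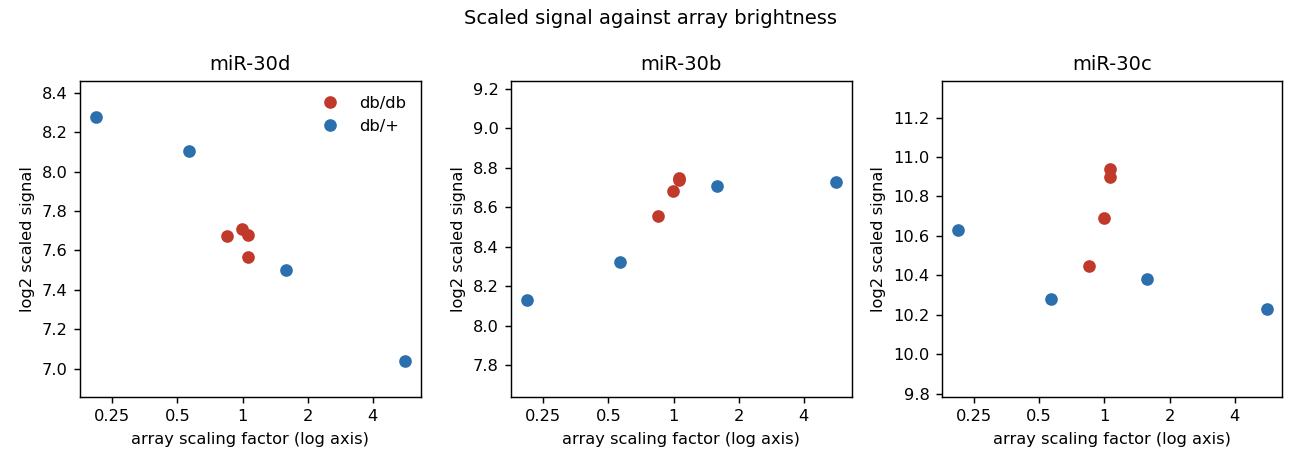
Log2 scaled signal of miR-30d, miR-30b and miR-30c against the scaling factor of the array (log axis; a larger factor is a brighter array), 1 point per array, db/db in red and db/+ in blue. miR-30d is at 8.28 on the dimmest and 7.04 on the brightest db/+ array and miR-30b at 8.13 and 8.73, while the db/db arrays sit at factors of 0.847 to 1.06.

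The star arms had positive differences that did not pass. miR-30a* was at 6.74, 7.20, 6.95 and 7.21 in db/db livers, against 6.54, 6.91, 6.60 and 7.35 in db/+ livers. The highest value was that of the dimmest db/+ array, and the log2 fold change was 0.18 ± 0.21 (limma adjusted p = 0.602, SE, n = 4 per strain). Leaving out 1 array moved it between 0.08 (without db/+ replicate 1) and 0.34 (without db/+ replicate 4). miR-30e*, the member not detected on every array, was at 5.18, 5.58, 5.57 and 5.64 in db/db livers, against 5.01, 4.99, 5.30 and 5.69 in db/+ livers. The db/+ value of 5.69 was not measured reliably, since miR-30e* was not detected on that array and 0 of its 16 usable spots were well above background there. Its log2 fold change was 0.25 ± 0.19 (SE, n = 4 per strain; limma adjusted p = 0.41). Without db/+ replicate 4 it was 0.39, the highest of the fits that left out 1 array (adjusted p = 0.137).

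The array also holds 3 star arms of the family that were not members. miR-30c-2* was detected on 7 of the 8 arrays, at 4.70 ± 0.15 in db/db and 4.58 ± 0.43 in db/+ livers (SD, n = 4 each). miR-30b* was detected on 2 arrays, both db/+, and miR-30c-1* on 3, and neither was tested. miR-30c-1* was at 5.79 on db/+ replicate 1, the brightest array, with all 20 spots well above background, and at 2.20 to 3.44 on the other 7 arrays, where 2.20 is the floor.

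Ratios of members within an array do not depend on its scaling factor and ask whether arms of a hairpin, or neighbours from a locus, shifted apart. A trend with array brightness that differs between members does not cancel in a ratio. For 5 such pairs an exact permutation test over the 8 arrays was used (two-sided, smallest possible p = 0.0286, adjusted over the 5 pairs). The log2 ratio of miR-30a over miR-30a* was 3.95, 3.57, 3.96 and 3.39 in db/db livers, against 3.97, 4.16, 3.82 and 3.64 in db/+ livers. The means differed by -0.18 (exact permutation p = 0.343, adjusted p = 0.429), and by -0.07 without db/db replicate 4. The log2 ratio of miR-30e over miR-30e* was 3.22, 2.54, 2.86 and 2.20 in db/db livers, against 3.39, 3.33, 3.18 and 2.25 in db/+ livers. The db/+ value of 2.25 rests on the array where miR-30e* was not detected, so it is not a measured ratio. With it the pair differed by -0.33 (exact permutation p = 0.343, adjusted p = 0.429), and without that array by -0.60 (exact permutation, adjusted p = 0.214).

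The other pairs did not pass either. miR-30b over miR-30d was 1.02 ± 0.12 in db/db and 0.74 ± 0.85 in db/+ livers (SD, n = 4 each), a difference of 0.28 (exact permutation p = 0.514, adjusted p = 0.514). Its db/db values lay between 0.88 and 1.17, inside the db/+ range of -0.14 to 1.69. From the brightest to the dimmest db/+ array this ratio was 1.69, 1.21, 0.22 and -0.14, lower on each dimmer array. miR-30c over miR-30e was 2.55 ± 0.47 in db/db and 2.10 ± 0.41 in db/+ livers (SD, n = 4 each), a difference of 0.45 (exact permutation p = 0.171, adjusted p = 0.429). miR-30a over miR-30c was -0.0027 ± 0.27 in db/db and 0.37 ± 0.31 in db/+ livers (SD, n = 4 each), a difference of -0.37 (exact permutation p = 0.143, adjusted p = 0.429). Because the miR-30c signal sums over both of its loci, neither ratio with miR-30c compares the neighbours of 1 locus alone. In db/db livers 2 and 4 miR-30c and miR-30a* were higher, and miR-30e lower, than in db/db livers 1 and 3. Over all 8 arrays the correlation of miR-30c with miR-30e* was 0.881 and that of miR-30e with miR-30a* was -0.867 (Pearson r over arrays, a description). These were the highest and the lowest among the pairs of members, and the first includes db/+ replicate 4, where miR-30e* was not detected.

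**Figure D4:**
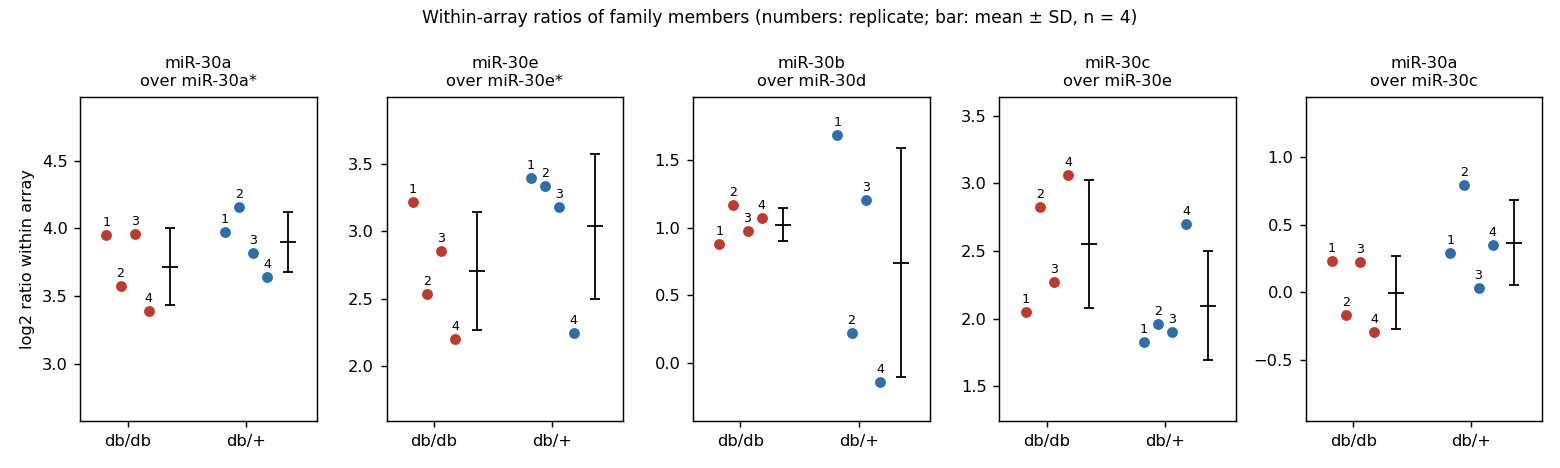
Log2 ratio of a pair of members within each array, db/db (red) left of db/+ (blue), with replicate numbers and the mean ± SD (n = 4) as a black bar. The strains overlap for all 5 pairs, and miR-30b over miR-30d spans 0.88 to 1.17 in db/db and -0.14 to 1.69 in db/+.

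The sign of several members depended on the processing. miR-30b, miR-30c and miR-30a* had positive log2 fold changes under all 28 alternatives and miR-30e* under 26 of 27, the exception being normexp background correction (-0.17). miR-30a was positive under 12 of 28, miR-30d under 6 and miR-30e under 2. With SAM, the replicate block, the changed filters and the changed floors the members' fold changes equalled the main ones. These alternatives therefore say nothing more about a sign. Alternatives also moved all tested miRNAs together, their median being 0.15 in the main processing, 0.02 with 75th percentile scaling, -0.13 with normexp and 0.33 with the median over all miRNAs above 0. Relative to that median, miR-30c was above it under all 28 alternatives, miR-30b under 24, miR-30a* under 23 and miR-30e* under 25 of 27. miR-30a was above it under 4, miR-30d under 3 and miR-30e under 1. In the main processing miR-30b lay 0.06 and miR-30a* 0.03 above the median. The authors' deposited scores for the 7 members gave differences from -0.04 (miR-30e) to 0.13 (miR-30e*) on the scores' own log scale, whose base is not given, and none passed (limma adjusted p from 0.16 to 0.913).

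**Figure D5:**
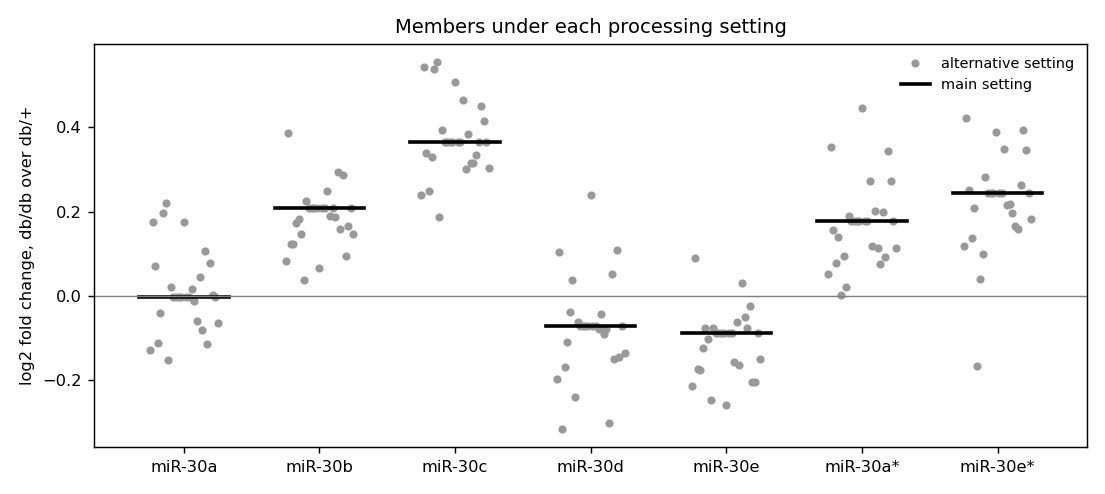
Log2 fold change of each member, db/db over db/+, under the main processing (black line) and each alternative (grey points), the authors' deposited scores left out because their log base is not given. miR-30c stays above 0 throughout, between 0.19 and 0.55, whereas miR-30a, miR-30d and miR-30e lie on both sides of 0.

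Outside the family, the miRNAs whose values over the 8 arrays were most like the mean of the 6 members detected on all of them were miR-28, miR-99a and miR-192 (Pearson r = 0.926, 0.918 and 0.914, against a median of 0.364 over 83 miRNAs). All values share the arrays' scaling, so this likeness is a description. miR-30 is also known as a repressor of genes of fibrosis and of the epithelial-mesenchymal transition, along with other miRNAs. Of 16 listed miRNAs known from those processes 12 were tested. Of these, 4 rose in db/db livers and 1 fell, where 9.45% of all tested miRNAs rose and 5.51% fell. The list's median log2 fold change was 0.40, against 0.15 over all tested miRNAs. The list was chosen with earlier results of these data known, so these comparisons cannot show an enrichment. The increases were miR-34a, a target of p53 (2.54 ± 0.26, limma adjusted p = 1.7e-04), miR-31 (1.10 ± 0.17, adjusted p = 0.00321), miR-203 (0.94 ± 0.25, adjusted p = 0.0281) and the epithelial miR-200b (0.81 ± 0.16, adjusted p = 0.00788), each ± SE with n = 4 per strain. The decrease was miR-21, known from fibrotic and proliferating tissue (-0.78 ± 0.16, SE, n = 4 per strain, limma adjusted p = 0.00846). Of the 7 that did not pass, 3 are the collagen repressors of the miR-29 family. Their log2 fold changes were -0.43 for miR-29a (limma adjusted p = 0.187), -0.69 for miR-29b (adjusted p = 0.185) and -0.51 for miR-29c (adjusted p = 0.086). The other 4, miR-200a, miR-214, miR-192 and miR-199a-5p, were at 0.64, 0.64, 0.15 and 0.08.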

How the data were processed

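Per the labels' protocols, 100 ng of liver RNA received a Cy3 label for 1-colour Agilent miRNA arrays. Spot intensity is, per the file headers, the background-subtracted processed signal of Feature Extraction 9.5.3.1 (the series text names 9.3.5), with no scaling between arrays. Flags for detection, background, saturation and outliers are 0 or 1, a different measure from intensity, per the file headers. The deposited series values equal the scanner's raw median intensity. The authors also deposited a score for each of 139 miRNAs, on a log scale of unstated base.

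Groups came from the titles. Control and outlier spots (3.42% to 4.84% of spots) were dropped; 0 were saturated. Spots were averaged by probe and probes by miRNA, arrays were scaled, a floor of 4.59 was set (the median of the arrays' lowest detected signals), and log2 was taken. Tested miRNAs had to be detected on every array of a strain; limma 3.58.1 in R 4.3.3 was used, two-sided, with Benjamini-Hochberg adjustment over 127. Ratios were tested over all 70 label permutations. Named were all members, the 3 miRNAs most like their mean and the changed miRNAs of a fibrosis list. Members and lists were chosen with earlier results of these data known. Steps were tested on simulated data. The floor can understate differences of dim miRNAs, and 4 arrays per strain limit precision; p-values measure the spread between these arrays. Alternatives covered scaling, background, floor, filter, probe summary, array weights, SAM, the authors' scores and each array left out. Other software was data.table (1.17.8) for reading and matplotlib (3.10.9) for plots.

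Numbers 3 and 4 stand in the titles of both strains, with no statement that they mark a shared batch. Deviations of same-numbered arrays correlated at 0.0364 and 0.307.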

Additional observations from a re-analysis of the deposited data

Results flagged for a closer look

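Among 24 sets of 4 values (7 members and 5 ratios in each strain), 2 held a value far from the other 3 by Dixon's test; chance gives about 1 in 20. miR-30e* was at 5.18 on db/db replicate 1, against 5.57 to 5.64 on the other db/db arrays. The log2 ratio of miR-30c over miR-30e was 2.70 on db/+ replicate 4, the dimmest array, against 1.83 to 1.96 on the other db/+ arrays.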

How the results depend on the processing

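The count of 19 miRNAs past the threshold became 0 with no scaling (limma, with 1 at an unadjusted p under 0.05), 1 with the median over all miRNAs above 0 and with raw median intensity, 2 with normexp, 3 with the authors' deposited scores, 4 with no filter, 12 with the higher floor (25.9) and 42 with array weights; it ranged from 10 (without db/db replicate 2; 12 without db/db replicate 3) to 21 (without db/+ replicate 4) in fits without 1 array. For the members the count stayed 0 in all but 1 of 28 alternatives, array weights, where it was 1 (miR-30c). The cause was not tested. Scaling on the median over all miRNAs above 0 moved the median of all tested miRNAs to 0.33, against 0.15 in the main processing, so the signs it turned follow from the scaling. The log2 fold change of miR-30a turned to 0.18 with array weights, 0.023 with the authors' scores (in score units), 0.022 with the brightest probe, 0.17 with the median over all miRNAs above 0, 0.20 with normexp, 0.072 with quantile normalization, 0.22 with raw median intensity and 0.0014 without the brightest and the dimmest db/+ array, and ranged from -0.11 to 0.11 in fits without 1 array. That of miR-30d turned to 0.24 with array weights, 0.0082 with the authors' scores, 0.10 with the median over all miRNAs above 0 and 0.039 with raw median intensity, and ranged from -0.30 to 0.11 without 1 array. That of miR-30e turned to 0.089 with the median over all miRNAs above 0 and ranged from -0.20 to 0.031 without 1 array, and that of miR-30e* turned to -0.17 with normexp. The ratio difference of miR-30a over miR-30a* turned to 0.20 with normexp and 0.12 with raw median intensity, that of miR-30e over miR-30e* to 0.089 with normexp, and that of miR-30b over miR-30d ranged from -0.015 (without db/+ replicate 4) to 0.60 (without db/+ replicate 1). Without 1 array the difference of miR-30a over miR-30a* ranged from -0.27 (without db/+ replicate 4) to -0.07 (without db/db replicate 4), miR-30e over miR-30e* from -0.60 (without db/+ replicate 4) to -0.17 (without db/db replicate 4), miR-30c over miR-30e from 0.28 (without db/db replicate 4) to 0.66 (without db/+ replicate 4) and miR-30a over miR-30c from -0.48 to -0.23 (without db/+ replicate 2). With the replicate block, for the numbers 3 and 4 shared in the titles, 18 miRNAs and 0 members passed, and no member's call changed; the ratios were not run with the block. The software's total signal and a scaling without family members were added after the data were seen and changed no member's call. Signal over background limits miR-30e* on the dimmest array, with 0 of 16 usable spots well above background. There miR-30b had 13 of 20 such spots, miR-30e 10 of 19 and miR-30a* 11 of 19. On the db/db arrays miR-30e* had 9 to 11 such spots, and on db/+ arrays 1 to 3 it had 17, 8 and 19.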
